A study of Homo sapiens with 6 samples.

Results

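The 6 metallothionein genes MT1E, MT1F, MT1G, MT1M, MT1X and MT2A were taken by symbol from the deposited gene table, which lists 63677 Ensembl identifiers. All 6 were found there and all 6 were among the 21729 genes tested, each with more than 10 counts over the samples. The RNA came from UWB1.289, a human cell line from an ovarian cancer that lacks functional BRCA1, whose genotype entry in the sample labels is WT. 3 samples had received 4 µM Olaparib, an inhibitor of the DNA repair enzymes PARP1 and PARP2, and 3 samples DMSO, its solvent, for 24 h in each case. The sample labels and the methods of the study give 4 µM, whereas the design text of the series gives 10 µM. Both groups were grown in the same serum-containing mix of RPMI and supplemented MEGM. The methods give 3 dishes per condition and 3 independent replicates per readout, without saying whether a replicate is 1 dish. The p-values therefore measure the spread between replicates of 1 cell line. The comparison asks whether the steady-state RNA of the metallothionein family differed after inhibition of PARP.

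Metallothioneins are small, cysteine-rich proteins that bind zinc and copper in the cell and also take up toxic metals such as cadmium. Their transcription rises with free zinc, which is sensed by the transcription factor MTF1, and MTF1 binds short metal response elements (MREs) that are repeated in metallothionein promoters. MT2A is in addition a long-known target of the glucocorticoid receptor. The genes arose by local duplication, and their transcripts are short and alike in sequence.

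The promoter stretches are shown because the repeated MRE is the feature that metallothionein genes are best known for. Of the 6 genes, MT2A and MT1X had an entry among the RefSeq promoters of GRCh38.p14, and MT1E, MT1F, MT1G and MT1M did not. The sequences cover the 250 bases before the RefSeq gene start, on the plus strand, at chr16:56608334-56608583 for MT2A and at chr16:56682220-56682469 for MT1X. Capitals mark matches to the MRE core, searched as TGCACNC or TGCGCNC on both strands, and a match in capitals that reads GNGTGCA or GNGCGCA lies on the opposite strand.
MT2A: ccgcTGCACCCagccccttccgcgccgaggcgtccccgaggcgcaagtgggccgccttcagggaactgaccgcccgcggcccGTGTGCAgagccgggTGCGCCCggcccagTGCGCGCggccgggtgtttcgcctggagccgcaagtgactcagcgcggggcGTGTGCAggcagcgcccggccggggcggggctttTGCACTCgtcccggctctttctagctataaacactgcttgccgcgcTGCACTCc
MT1X: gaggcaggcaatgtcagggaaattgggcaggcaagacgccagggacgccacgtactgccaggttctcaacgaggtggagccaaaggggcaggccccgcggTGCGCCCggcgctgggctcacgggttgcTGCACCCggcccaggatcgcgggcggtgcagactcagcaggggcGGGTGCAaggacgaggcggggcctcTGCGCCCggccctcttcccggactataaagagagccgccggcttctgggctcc

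The MT2A stretch held 7 MRE core matches, 5 of them TGCACNC and 2 of them TGCGCNC. The MT1X stretch held 4, with 2 of each form. Among 35114 RefSeq promoter stretches of the same length, 24.8% held at least 1 match to either form, 0.37% held at least 4 and 0.0313% held at least 7. TGCACNC alone was found in 9.87% of them and TGCGCNC in 16.8%. A TATAAA box on the gene strand began at position -29 in MT2A and at position -30 in MT1X. Positions count the first base before the gene start as -1. On either strand and at any position, TATAAA was present in 10.7% of all stretches. The antioxidant response element core TGACNNNGC, searched on both strands and found in 10.9% of all stretches, had 1 match in each gene, at -104 on the gene strand of MT2A and at -243 on the opposite strand of MT1X. The matches did not overlap each other in these 2 stretches. The GC content was 73.2% in MT2A and 70% in MT1X. These matches describe the letters of the reference sequence and were not tested for binding.

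**Figure D1:**
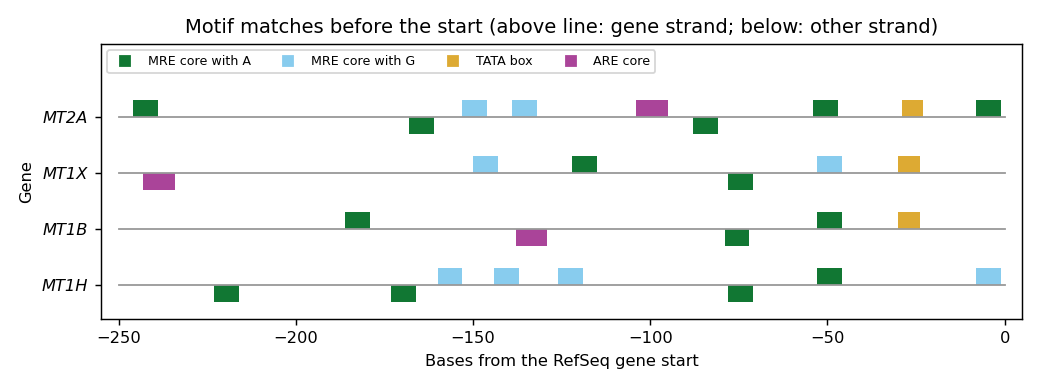
Positions of motif matches in the 250 bases before the RefSeq gene start, in bases from the start (x axis), for the 4 metallothionein genes with a promoter entry; boxes above a line are on the gene strand and boxes below it on the other strand. MT2A has 7 MRE core matches and MT1X 4, beside 3 in MT1B and 8 in MT1H, 2 relatives with at most 4 counts in these cells.

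Each library held between 35360458 and 39640775 counts, and the normalization factors lay between 0.9946 and 1.013. Replicates of a group differed by more than counting noise, with a chi-square per degree of freedom of 1.81 to 4.11. Across all 21729 genes, 730 passed edgeR's quasi-likelihood test at an adjusted p under 0.05, 467 of them higher and 263 lower with Olaparib. The median log2 fold change of all genes was -0.0042. Of 9 epithelial and Müllerian markers, used to check the ovarian cancer line, 8 were tested and 1 rose, against 2.15% of all genes. At an unadjusted p under 0.05 there were 5, against 14.8%, and 4 had separate groups, against 19.3%. The group means of KRT7, KRT8, KRT18 and EPCAM ran from 730 to 4061 CPM, the count of a gene scaled to library size with the TMM factors. KRT19 was at 447 CPM in DMSO and 471 with Olaparib. MUC16 and CDH1 were lower, at 44.3 and 46.2 CPM and at 34.7 and 38.3 CPM. The marker that rose was PAX8, at 305 CPM in DMSO and 328 with Olaparib (adjusted p = 0.0399), while WT1 had 8 counts over all samples. For 11 markers of other cells, sums were scaled to the library total alone. The leukocyte markers summed to 2.60 to 3.39 CPM in DMSO and 3.31 to 3.87 with Olaparib. The endothelial ones, nearly all CDH5, summed to 43.1 to 45.9 and 41.6 to 42.9, and the fibroblast ones to 7.39 to 8.45 and 6.37 to 9.05. PECAM1 and LUM had 0 counts, and CD3E and DCN 6 and 4. VWF, a low endothelial marker, was at 1.12 CPM in DMSO and 1.80 with Olaparib (adjusted p = 0.0106), and the part of such markers in the metallothionein values was not tested.

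The family was unevenly expressed. On the scale of TMM-normalised CPM per kilobase of the canonical transcript, MT2A stood first with 1321 ± 22.2 (SD, n = 3) in DMSO and 1281 ± 62.6 with Olaparib. MT1E followed with 282 ± 2.76 and 269 ± 17.95, and MT1M with 27.4 ± 0.867 and 32.9 ± 3.07. MT1X was at 7.25 ± 0.433 and 8.76 ± 0.435, and MT1F at 6.83 ± 1.13 and 8.38 ± 0.375. MT1G was last with 0.512 ± 0.275 and 0.573 ± 0.384. The order was the same in both groups. MT1X and MT1F were the neighbours in it whose ranges overlapped, and each of the other neighbours was separate in all 6 libraries.

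**Figure D2:**
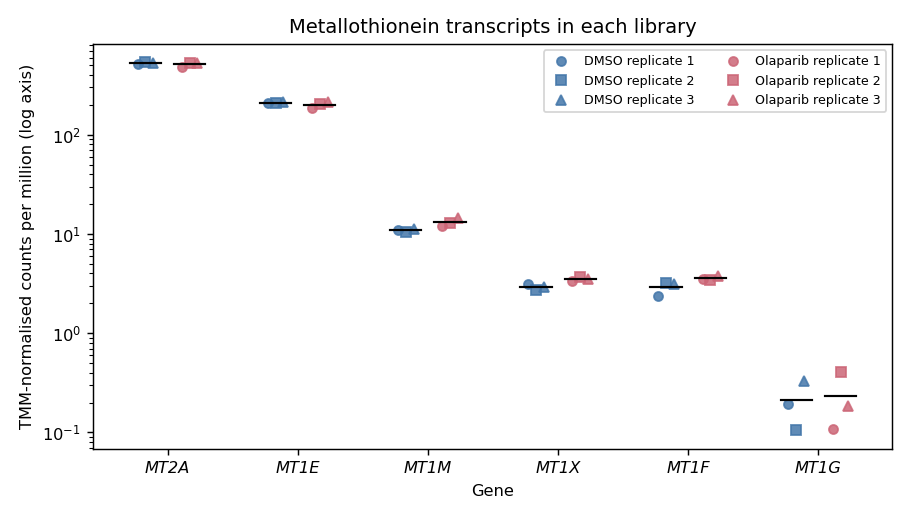
TMM-normalised CPM of each gene (y axis, log scale) in the 3 DMSO and 3 Olaparib libraries, with 1 point per library and a line at the group mean. MT2A and MT1E lie at or above 186.6 CPM in every library, MT1M between 10.6 and 14.4, MT1X and MT1F between 2.35 and 3.75, and MT1G at or under 0.411.

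Of the 6 genes, 1 rose at an adjusted p under 0.05 (MT1M) and 0 fell, against 3.36% of all genes tested that passed in either direction, 2.15% that passed as higher and 1.21% as lower. At an unadjusted p under 0.05 there were 3 (MT1M, MT1X and MT1F), against 14.8% of all genes, and the same 3 had groups that did not overlap, against 19.3% of all genes. With the added demand of an absolute log2 fold change above log2(1.2), which is 0.263, none of the 6 passed, against 1.21% of all genes. The fold changes were above 0 for 4 genes and below 0 for 2, with a median log2 fold change of 0.20. The genes are named here by level, from the 2 abundant ones to the rarest.

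In these bulk samples, fewer expressing cells and less RNA per cell cannot be told apart. MT2A, the main metallothionein of most human cells, was the most abundant member. Its CPM values were 519.8, 536.8 and 532.8 in DMSO and 484.8, 530.6 and 525.7 with Olaparib. The groups overlapped, and the first Olaparib library was below all others. The means were 529.8 ± 8.91 and 513.7 ± 25.1 CPM, a log2 fold change of -0.045 (SE 0.030, 95% interval -0.106 to 0.017, adjusted p = 0.536). The interval left room for a fall of up to 0.106 on the log2 scale. Without Olaparib replicate 1 the fold change was -0.0028 (adjusted p = 0.971). The gene (ENSG00000125148) lies on chromosome 16 from 56608584 to 56609497 on the plus strand of GRCh38, by GENCODE release 44, as do the positions that follow.

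MT1E, a widely expressed MT1 isoform (ENSG00000169715; chromosome 16, 56625475 to 56627112, plus strand), had 208.0, 210.2 and 212.1 CPM in DMSO and 186.6, 202.4 and 213.2 with Olaparib. Its Olaparib libraries covered a wider range than its DMSO libraries and overlapped them. The log2 fold change was -0.066 (SE 0.035, 95% interval -0.137 to 0.0053, adjusted p = 0.390). Leaving out Olaparib replicate 1 gave -0.014 (adjusted p = 0.885), and leaving out Olaparib replicate 3 gave -0.113 (adjusted p = 0.107).

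MT1M, an inducible MT1 isoform (ENSG00000205364; chromosome 16, 56632659 to 56633981, plus strand), was the 1 member that rose. It had 389, 404 and 445 counts in DMSO and 443, 469 and 542 with Olaparib. Scaled to library size these were 10.87, 10.58 and 11.27 CPM against 11.98, 12.85 and 14.39 CPM, so that every Olaparib library lay above every DMSO library. The log2 fold change was 0.26 (SE 0.064, 95% interval 0.131 to 0.392), a rise of 19.9%, with an adjusted p of 0.0139. It stood at rank 406 of all genes by p. The call was lost with DESeq2's Wald test (adjusted p = 0.0641) and without DMSO replicate 1 (0.0671), DMSO replicate 2 (0.106) or Olaparib replicate 3 (0.204), and the fold change was 0.18 to 0.32 over the 13 alternatives. Of the 50-base windows of its transcripts, 18.2% also occurred in transcripts of other genes, among them MT1E and MT1G, against 0.229% of 75-base windows and 0% of 100-base windows. The read length is not given in the sources used here.

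MT1X, an isoform found in many tissues, whose promoter stretch holds 4 MRE core matches (ENSG00000187193; chromosome 16, 56682470 to 56684196, plus strand), had 111, 105 and 116 counts in DMSO and 125, 136 and 132 with Olaparib. These were 3.10, 2.75 and 2.94 CPM against 3.38, 3.73 and 3.51 CPM, and the groups were separate. The log2 fold change was 0.27 (SE 0.113, 95% interval 0.043 to 0.502) and did not pass over all genes (adjusted p = 0.219). A long non-coding RNA with 0 counts shares 18.6% of its exonic bases, and 11.6% of its 100-base transcript windows were also found there.

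MT1F, a further MT1 isoform (ENSG00000198417; chromosome 16, 56657731 to 56660698, plus strand), had 84, 122 and 125 counts in DMSO and 129, 126 and 141 with Olaparib. The values were 2.346, 3.196 and 3.166 CPM against 3.49, 3.45 and 3.75 CPM. The groups were separate, and the first DMSO library stood below the other 5. The log2 fold change was 0.29 (SE 0.121, 95% interval 0.044 to 0.536, adjusted p = 0.223), and 0.17 (adjusted p = 0.582) without DMSO replicate 1.

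MT1G, an isoform on the minus strand of the cluster (ENSG00000125144; chromosome 16, 56666730 to 56668065), had 7, 4 and 13 counts in DMSO and 4, 15 and 7 with Olaparib, 50 in all. The counts of both groups ran through the same range. The log2 fold change of 0.14 had an SE of 0.469 and a 95% interval of -0.810 to 1.10 (adjusted p = 0.936). At this depth the interval left room for a fall of up to 0.810 or a rise of up to 1.10 on the log2 scale. The sign was negative without DMSO replicate 2 (-0.18) and without Olaparib replicate 2 (-0.51).

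**Figure D3:**
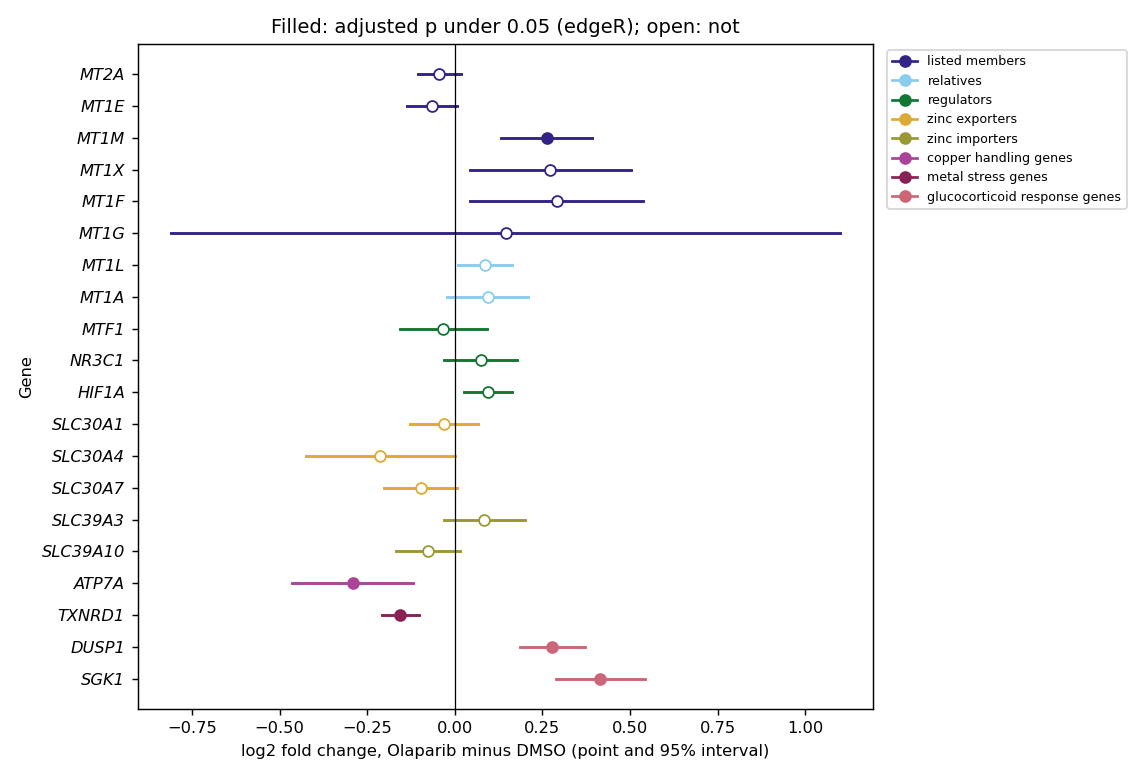
Log2 fold change, Olaparib minus DMSO, with its 95% interval (x axis) for the 6 metallothionein genes, 2 relatives and named genes of metal and glucocorticoid handling (y axis); filled points have an adjusted p under 0.05 in edgeR. Among the 6 genes the point of MT1M at 0.26 is the filled one, MT1X and MT1F lie beside it at 0.27 and 0.29 with wider intervals, and MT2A and MT1E lie at -0.045 and -0.066.

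Summed over the 6 genes, metallothionein counts made up 0.0687% to 0.0765% of a library. The sums were 753.6, 765.3 and 759.6 CPM (here scaled to the library total alone) in DMSO and 686.6, 749.4 and 760.1 with Olaparib. The groups overlapped, and the first Olaparib library was again the lowest. The means were 759.5 ± 5.85 and 732.0 ± 39.7 (SD, n = 3), a log2 ratio of -0.053 (two-sided exact permutation p = 0.3, where 3 against 3 samples cannot go below 0.1). Without Olaparib replicate 1 the log2 ratio was -0.0090. This library was the lowest of its group for 5 of the 6 genes.

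MT2A supplied 69.1% to 70.4% of the summed counts and MT1E 26.9% to 28.0%, so the sum followed these 2 genes. The other 4 members together supplied 2.22%, 2.18% and 2.32% in DMSO and 2.75%, 2.71% and 2.87% with Olaparib. This grouping was made after the values were seen and is given as a description with no test.

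A count set against MT2A in the same library does not depend on the scaling between libraries. Per 1000 MT2A counts there were 20.9, 19.7 and 21.2 of MT1M in DMSO and 24.7, 24.2 and 27.4 with Olaparib. For MT1X the values were 5.97, 5.12 and 5.51 against 6.97, 7.02 and 6.67. For MT1F they were 4.51, 5.95 and 5.94 against 7.20, 6.51 and 7.12. In each of these 3 genes the Olaparib libraries lay above all DMSO libraries, with log2 ratios of 0.30, 0.32 and 0.35. The two-sided exact permutation p was 0.1 for each, which is the smallest that 3 against 3 samples allow, and 0.167 adjusted over the 5 genes compared with MT2A. The same 3 had already separated in CPM, and MT2A changed little (log2 fold change -0.045), so this separation adds no independent support. The ratio was added after the values were seen, and the share of all genes separate on it was not computed. MT1E, with 396.6 ± 4.57 and 390.7 ± 13.1 per 1000 (SD, n = 3), had a log2 ratio of -0.022 (exact permutation p = 0.5, adjusted 0.625), and MT1G one of 0.14 (exact permutation p = 0.8, adjusted 0.8). Of the relatives described below, MT1L was also separate, with 262.2, 251.8 and 264.9 per 1000 in DMSO and 283.9, 270.6 and 298.4 with Olaparib. Its log2 ratio was 0.13 (exact permutation p = 0.1, unadjusted). MT1A overlapped, with a log2 ratio of 0.14 (exact permutation p = 0.2, unadjusted). A difference in such a ratio would not tell which of its 2 transcripts had changed.

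**Figure D4:**
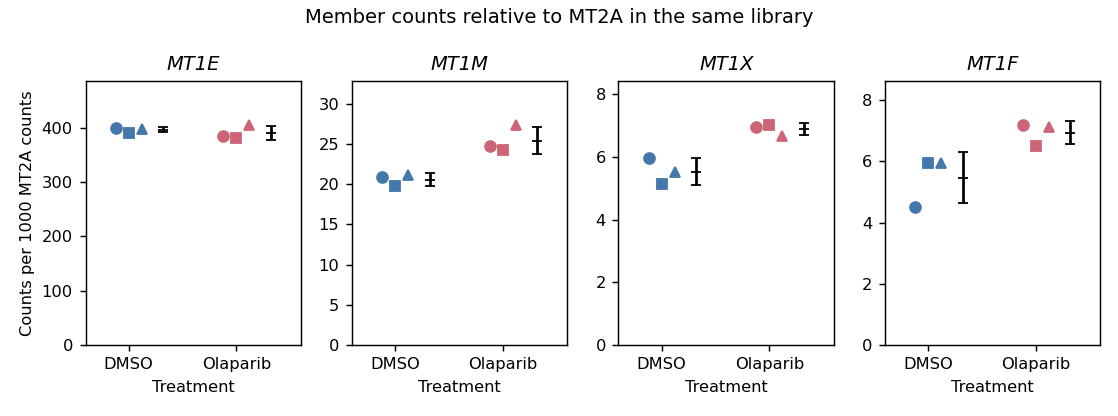
Counts per 1000 MT2A counts of the same library (y axis, starting at 0) for MT1E, MT1M, MT1X and MT1F in DMSO and Olaparib; points are libraries, with circles, squares and triangles for replicates 1, 2 and 3, and the bars beside them are the mean ± SD of 3. The Olaparib points of MT1M, MT1X and MT1F lie above all their DMSO points, and those of MT1E overlap.

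Among the other metallothionein genes and pseudogenes, 14 were found in the table and 9 were tested. In edgeR's test 0 passed, against 3.36% of all genes, with 2 at an unadjusted p under 0.05 (MT1L and MT1XP1), against 14.8%. MT1L, a transcribed pseudogene in the cluster, had 31848 counts in all, more than the 4 rarer listed genes together. It had 136.3, 135.2 and 141.2 CPM in DMSO and 137.7, 143.6 and 156.8 with Olaparib, with overlapping groups and a log2 fold change of 0.086 (SE 0.037, adjusted p = 0.248). Without Olaparib replicate 1 its fold change was 0.13 (adjusted p = 0.0427). In the GENCODE annotation used here for positions, the exons of MT1L lie wholly within those of a long non-coding RNA at the same place. Whether the authors' counting annotation also held that RNA was not tested. How far its reads enter the MT1L counts is therefore not known. MT1A, a functional MT1 gene, had 3304 counts and went from 14.2 ± 1.13 to 15.2 ± 0.263 CPM, a log2 fold change of 0.094 (SE 0.057, adjusted p = 0.475). The other 7 tested relatives had 14 to 80 counts in total, namely MT1DP with 14, MT1XP1 with 16, MT1P1 with 20, MT1JP with 22, MT3 with 22, MT1P3 with 59 and MT2P1 with 80. MT1B, MT1H, MT4, MT1HL1 and MT1CP had 0 to 4 counts. MT3 and MT4 are the isoforms known from brain and from stratified epithelium.

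The 6 genes lie within 75.61 kb, from the start of MT2A to the end of MT1X. Apart from metallothionein genes, the nearest protein-coding genes with more than 10 counts on either side were BBS2, a component of the BBSome of cilia, with a log2 fold change of -0.017 (adjusted p = 0.895), and NUP93, a nucleoporin, with 0.049 (adjusted p = 0.510). Of 8 protein-coding neighbours outside the family tested within 300 kb, 0 passed, against 3.36% of all genes. Their fold changes ran from -0.082 to 0.12 on the log2 scale. Inside the cluster, MT1M and MT1E are next to each other among the listed genes and had fold changes of opposite sign (0.26 and -0.066).

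**Figure D5:**
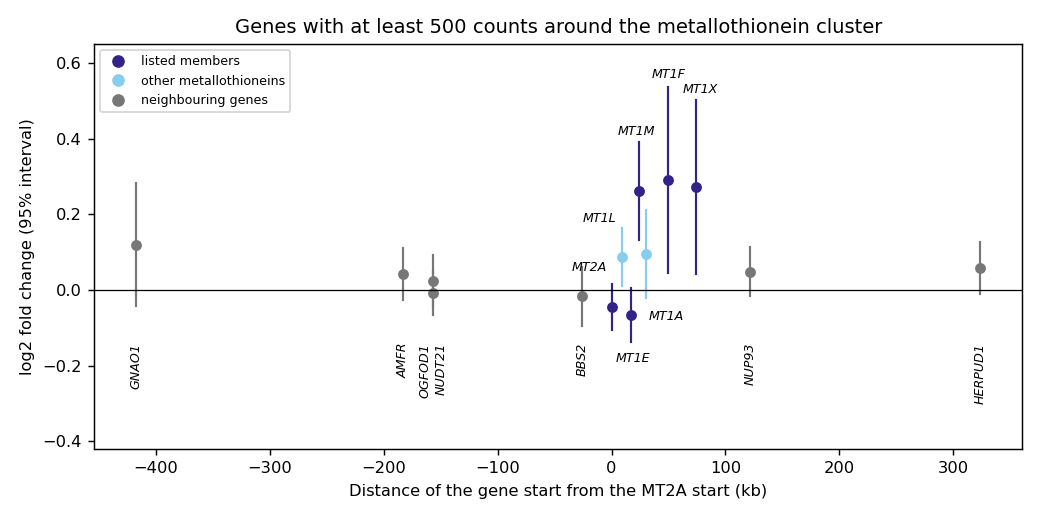
Log2 fold change with its 95% interval (y axis) against the distance of each gene start from that of MT2A in kb (x axis), for genes with at least 500 counts in or near the cluster; dark points are listed members, light ones other metallothioneins and grey ones neighbours. MT1M, MT1F and MT1X lie above the 2 abundant genes MT2A and MT1E, and the neighbours between -0.017 and 0.12; MT1G, with 50 counts, is not drawn.

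Factors that act on metallothionein transcription were measured at well-covered levels. Of 9 regulators tested, 0 passed in edgeR's test, against 3.36% of all genes. At an unadjusted p under 0.05 there was 1 (HIF1A), against 14.8%, and the median log2 fold change was 0.048. MTF1, the zinc sensor, was at 10.9 ± 0.147 CPM in DMSO and 10.6 ± 0.405 with Olaparib, a log2 fold change of -0.033 (adjusted p = 0.871). NR3C1, the glucocorticoid receptor, was at 24.6 ± 1.03 and 25.8 ± 1.81 CPM (0.074, adjusted p = 0.550). HIF1A, the oxygen-regulated factor, was at 122.1 ± 2.67 and 130.4 ± 3.62 CPM (0.096, adjusted p = 0.131).

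Zinc transporters move the metal that metallothioneins hold. Of 24 SLC39 importers and SLC30 exporters, 18 were tested and 0 passed in edgeR's test, against 3.36% of all genes. At an unadjusted p under 0.05 there was 1, against 14.8%. This was SLC39A1, which lies outside the naming rule and is named for that p-value. The median log2 fold change was -0.010 for the 12 importers tested and -0.051 for the 6 exporters. SLC30A1, the zinc exporter of the plasma membrane and itself a target of MTF1, was at 41.28 ± 1.202 CPM in DMSO and 40.4 ± 3.07 with Olaparib (log2 fold change -0.031, adjusted p = 0.834). The values farthest from 0 among well-counted exporters were those of SLC30A4 at -0.21 (adjusted p = 0.342) and SLC30A7 at -0.097 (adjusted p = 0.388), and among importers those of SLC39A3 at 0.084 (adjusted p = 0.537) and SLC39A10 at -0.077 (adjusted p = 0.443).

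Of 9 copper handling genes tested, ATP7A fell and 0 rose, against 3.36% of all genes that passed in either direction. The median log2 fold change was -0.046. ATP7A, the copper-exporting ATPase, went from 6.65 ± 0.315 to 5.42 ± 0.415 CPM, a log2 fold change of -0.29 (SE 0.085, adjusted p = 0.0473). The call was lost in 9 of 13 alternatives, among them DESeq2's Wald test (adjusted p = 0.158), limma voom (0.0636) and leaving out DMSO replicate 1 (0.151), 2 (0.161) or 3 (0.0733) or Olaparib replicate 2 (0.229) or 3 (0.117).

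Of 12 genes of the metal and oxidative stress response, TXNRD1 fell and 0 rose, against 3.36% of all genes that passed in either direction. The median was -0.045, with 9 fold changes below 0 and 3 above. At an unadjusted p under 0.05 there were 3 (TXNRD1, GCLC and NQO1), against 14.8% of all genes. TXNRD1, thioredoxin reductase, went from 1504 ± 11.4 to 1350 ± 24.3 CPM, a log2 fold change of -0.16 (SE 0.026, adjusted p = 1.9e-04). HMOX1, the heme oxygenase gene that cadmium and zinc strongly induce, was among those that did not pass (3.59 ± 0.149 and 3.59 ± 0.305 CPM, log2 fold change 0.0018, adjusted p = 0.994). GCLC (log2 fold change -0.13, adjusted p = 0.125) and NQO1 (-0.085, adjusted p = 0.168) did not pass either. Groups were separate in 4 of the 12 genes, against 19.3% of all genes. GCLC and NQO1 were among these, and so was DNAJB1, which was higher with Olaparib (0.045, adjusted p = 0.506). HMOX1, GCLC, NQO1 and DNAJB1 lie outside the naming rule and were chosen after their values were seen.

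Of 10 glucocorticoid response genes, SGK1 and DUSP1 rose and 0 fell, against 3.36% of all genes that passed in either direction. The median was 0.078, with 8 fold changes above 0 and 2 below. SGK1, a kinase that regulates ion transport, went from 10.8 ± 0.488 to 14.5 ± 1.21 CPM (log2 fold change 0.42, SE 0.062, adjusted p = 4.9e-05). DUSP1, a phosphatase of MAP kinases, went from 28.3 ± 0.243 to 34.3 ± 1.44 CPM (0.28, SE 0.045, adjusted p = 1.5e-04). FKBP5, an often used reporter of the receptor, did not pass (log2 fold change 0.039, adjusted p = 0.725), nor did TSC22D3 (0.13, adjusted p = 0.162). With SGK1 and DUSP1, TSC22D3 was 1 of 3 at an unadjusted p under 0.05, against 14.8% of all genes. Groups were separate in 4 of the 10 genes, TSC22D3 among them, against 19.3% of all genes. FKBP5 and TSC22D3 were both chosen after their values were seen.

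The genes whose profile over the 6 libraries lay nearest to that of the summed metallothioneins were HSPA1B, SFT2D1, IRF3, FAM131A and UAP1L1. Nearness was the root mean square difference of log2 CPM, each profile centred on its own mean, among the 13114 genes that averaged 50 or more counts. It was 0.0065 for HSPA1B and 0.0128 to 0.0134 for the other 4, against a median of 0.0815 over all genes compared. HSPA1B encodes an inducible HSP70 chaperone and has a near-identical copy, HSPA1A, so its counts are uncertain. The summed profile itself spanned only 0.146 on the log2 scale, with its lowest point in Olaparib replicate 1.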

How the data were processed

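Polyadenylated RNA of 6 UWB1.289 samples, 3 with Olaparib and 3 with DMSO, had been sequenced. The authors trimmed reads with Trimmomatic, mapped them with STAR to GRCh38 (Ensembl 96 in the methods), used Picard to identify PCR duplicates and counted reads per gene with featureCounts. The deposited table holds raw counts, whole numbers without normalization. Whether duplicates were removed, and the strand and multimapping settings, are not given in the sources used here. Reads shared by near-identical metallothionein transcripts can therefore be split or lost.

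Samples were grouped by their labels. Symbols, positions and transcript lengths came from GENCODE release 44, which held 81.9% of the identifiers listed and 96.0% of those tested. Promoters came from RefSeq on GRCh38.p14. Genes with more than 10 counts in total were TMM-scaled and compared with edgeR 4.0.16's quasi-likelihood test in R 4.3.3, with Benjamini-Hochberg adjustment over all 21729 genes, and an adjusted p under 0.05 was the threshold. The summed counts and the ratios to MT2A were compared by exact permutation tests over samples. The test was tried on simulated counts first. Alternatives were DESeq2 1.42.0 (size factors and Wald test), limma 3.58.1 voom, upper quartile scaling, other filters, a fold threshold of 1.2, a replicate block and leaving out each sample. The ratio to MT2A was added after seeing the data. The members and lists were chosen with earlier results of these data known.

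Named were all members, their relatives with more than 10 counts, the genes of each list that passed or else the 2 farthest from 0 with a mean count of at least 20, MTF1, NR3C1 and SLC30A1, the nearest coding neighbours outside the family and the 5 most alike profiles. Exceptions are named as such, apart from the cell type markers, HSPA1A and the relatives with 10 counts or fewer, which also lie outside this rule. Of the list symbols, 2 had no match in the table. At 35360458 counts or more per library, counting error was small for MT2A and MT1E and large for MT1G. Protein sequences were not used here.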

Additional observations from a re-analysis of the deposited data

How the results depend on the processing

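Over all genes, the number called was 730. It was 262 with the fold threshold of 1.2, 1322 with the replicate block, and 398 to 870 when 1 sample was left out, with 398, 401 and 439 without DMSO replicate 2, DMSO replicate 3 and Olaparib replicate 3. DESeq2's Wald test called 525 and limma voom 671. Of the 6 metallothioneins, 1 was called (MT1M), but 0 with the fold threshold (3 at an unadjusted p under 0.05) and 0 with DESeq2's Wald test (1 unadjusted). Leaving out 1 sample gave 0 to 1, with 0 without DMSO replicate 1, DMSO replicate 2 or Olaparib replicate 3. Among copper handling genes the 1 call (ATP7A) became 0 with DESeq2 size factors, DESeq2's Wald test, limma voom and filterByExpr, and 0 to 1 when a sample was left out, with an unadjusted count of 1 to 3 in these. Of the metal stress genes 0 passed the fold threshold instead of 1. The 2 glucocorticoid response genes were called under every alternative run. For 0 regulators and 0 zinc transporters called in edgeR's test, DESeq2 and limma voom called 0 as well.

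Samples with the same replicate number did not deviate together: the correlations of their deviations were -0.0816, 0.141 and -0.124 over 14807 genes, and 1 of 3 numbers correlated best with itself. Across numbers the correlations ran from -0.203 (DMSO replicate 2 with Olaparib replicate 3) to 0.263 (DMSO replicate 1 with Olaparib replicate 3). The source of these was not tested. The replicate block gave 1 zinc transporter (lower), 1 regulator (higher), 3 metal stress genes (lower) and 1 metallothionein, and a summed log2 ratio of -0.055.

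The sign of MT1G turned to -0.18 without DMSO replicate 2 and to -0.51 without Olaparib replicate 2, against -0.51 to 0.64 over all samples left out in turn, and that of SLC30A1 to 0.018 without Olaparib replicate 2, against -0.089 to 0.018. The summed log2 ratio was -0.081 to -0.0090 when a sample was left out and negative under every alternative run. The cause of these differences was not tested. With 50 counts, MT1G allowed no statement on direction, and filterByExpr removed it.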
